A study of Mus musculus with 69 samples.

Results

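The genes of the adrenal gland described here were 10 of the 24538 symbols listed for each kidney library, 6 of the adrenal cortex (Cyp11a1, Cyp11b1, Cyp11b2, Cyp21a1, Star and Mc2r) and 4 of the adrenal medulla (Chga, Pnmt, Th and Dbh). They were picked by their large apparent rhythms in the kidneys of young mice, so their levels over time in young mice, and their difference between young and nephritic mice, are given as a description with no test. RNASeq data came from perfused whole kidneys of NZB/W F1 mice, a hybrid strain in which females develop lupus nephritis with age. The 65 original libraries, 1 for each mouse, came from 30 young mice aged 12 weeks, 27 nephritic mice aged 30 to 45 weeks with proteinuria, and 8 mice in remission after combined CTLA4Ig, anti-CD40L and cyclophosphamide treatment begun at 36 to 50 weeks of age. Young and nephritic kidneys were taken at Zeitgeber times (ZT) 0, 4, 8, 12, 16 and 20, where ZT0 is lights on and ZT12 lights off, and remission kidneys at ZT0 and ZT12 only. Total counts were 25257530 to 35744843 in young, 26596500 to 48075977 in nephritic and 13311278 to 21849912 in remission libraries. Libraries are named here by their labels, in which ZT12RL, for example, is a young mouse at ZT12.

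The adrenal gland lies on the upper pole of the kidney and consists of an outer cortex, which makes steroid hormones, and an inner medulla, which makes catecholamines. In the cortex, pituitary ACTH acts on its receptor Mc2r, Star brings cholesterol to the inner mitochondrial membrane, Cyp11a1 cleaves its side chain, and Cyp21a1 and Cyp11b1 complete corticosterone in the zona fasciculata, while Cyp11b2 makes aldosterone in the outermost zone, the zona glomerulosa. In chromaffin cells of the medulla, Th, Dbh and Pnmt act in the path from tyrosine to adrenaline, and Chga encodes chromogranin A, a protein of the secretory granules. Kidney is not a site where this whole set is known to be made, and corticosterone release has a daily rhythm.

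All 10 genes were high in the same few libraries. Cyp11b1 reached 100 counts in 9 of the 65 libraries and did not in 56. For 9 of the 10 genes the 9 highest libraries were these same 9, and for Cyp11b2 it was 8 of 9. For Cyp11b1 itself this was fixed by the choice of libraries. How many of all genes part the libraries in this way was not counted. Of 17577 genes outside the members, 53 had a correlation of at least 0.8 with the summed cortex or medulla level. They were the young libraries ZT0RU, ZT12RL, ZT12LU, ZT120, ZT16RU, ZT16LL, ZT160 and ZT20LU and the nephritic ZT0 library RX10LU. The summed level of the 6 cortex genes in CPM (counts scaled to the same total in every library) was 394 in ZT0RU, 1624 in ZT12RL, 193 in ZT12LU, 1752 in ZT120, 1653 in ZT16RU, 55.9 in ZT16LL, 1436 in ZT160, 575 in ZT20LU and 1460 in RX10LU, and between 3.66 and 13.1 in the other 56 libraries. The summed level of the 4 medulla genes in the same order was 5.15, 242, 28.3, 211, 176, 5.36, 162, 89.4 and 205 CPM, and between 0 and 0.676 CPM in the others. Neither level overlapped between the 9 libraries and the rest, which for the cortex level follows in part from the choice by Cyp11b1. In 5 of the 9 the cortex genes held over 0.1% of all counts. Fewer cells of a type and less RNA per cell cannot be told apart in whole tissue. In the plot of both levels 56 points lie close together at the lower left and the 9 are spread above them.

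**Figure D1:**
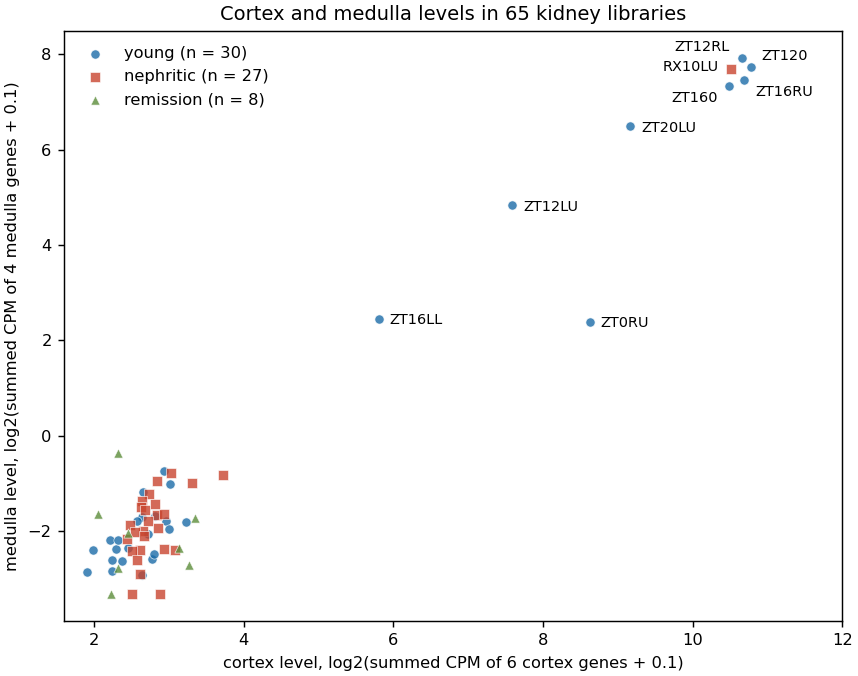
Each point is 1 of the 65 original kidney libraries, with the summed level of the 6 cortex genes on the x axis and of the 4 medulla genes on the y axis, both as log2(CPM + 0.1). The 9 libraries with at least 100 Cyp11b1 counts are named; RX10LU is the nephritic one, and ZT0RU lies below the others of similar cortex level.

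The libraries were checked against markers of kidney and of other tissues near it. The summed level of 7 kidney genes, among them Umod and Lrp2, ranged from 5289 to 18998 CPM over all 65 libraries, so genes of the labelled tissue were seen in each. It was 5421 to 17952 CPM in the 9 libraries and 5289 to 18998 in the 56, with medians of 13762 and 13776.5. The lowest of the 9 was the nephritic RX10LU. Its 5421 CPM lay below the nephritic median of 12991 and below every young library (at least 11360.5 CPM). The 8 adipocyte genes, among them Adipoq and Plin1, summed to 229 to 998 CPM in the 9 libraries and 63.2 to 862 in the 56, with medians of 716 and 259 CPM, and their correlation with the cortex level was 0.44 over 65 libraries. The 4 liver genes ranged from 105 to 11084 CPM in the 9 and 36.4 to 11057 in the 56, with medians of 800 and 197 CPM and a correlation of 0.42 with the cortex level. The 7 pancreas genes ranged from 0.04 to 59.4 CPM in the 9 and from 0 to 8.19 in the 56, with medians of 0.149 and 0.257, and the 6 genes of neurons and Schwann cells from 8.14 to 13.7 and from 6.28 to 15.4, with medians of 10.3 and 8.97. The 9 genes of the ovary, an organ that also makes steroids, summed to 4.66 to 21.4 CPM in the 9 libraries and 2.25 to 17.7 in the 56, with the highest value in RX10LU. Among them Fshr alone was at 0 in every library, and each of the others was seen in at least 1 of the 9 and 1 of the 56. The 4 lymph node B cell genes ranged from 0.792 to 16.3 CPM in the 9 libraries and 0.827 to 179 in the 56. All of these ranges overlapped. The medians of adipocyte, liver, neuron and Schwann cell, and ovary genes (5.83 against 5.05 CPM) were higher in the 9 libraries. Those of kidney, pancreas and B cell genes (1.49 against 8.35 CPM) were lower. The 9 were mostly young and the 56 were not. In the 22 young libraries under 100 Cyp11b1 counts the medians were 227 CPM for adipocyte, 219 for liver, 8.51 for neuron and Schwann cell, 4.30 for ovary, 14590.5 for kidney, 0.228 for pancreas and 1.51 for B cell genes. The part of such tissue in the results was not tested.

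Of the cortex genes, Cyp21a1, the steroid 21-hydroxylase, had the highest level per length. In ZT12RL it was at 234 CPM per kilobase of exon, ahead of Star at 131, Cyp11b1 at 102, Cyp11a1 at 51.5, Mc2r at 5.60 and Cyp11b2 at 2.63. Cyp21a1 itself was at 139 CPM in ZT0RU, 500 in ZT12RL, 58.8 in ZT12LU, 529 in ZT120, 651 in ZT16RU, 20.2 in ZT16LL, 462 in ZT160, 181 in ZT20LU and 513 in RX10LU, and at most 2.94 CPM elsewhere. These values span a wide range even between libraries of 1 time point, 58.8 to 529 CPM at ZT12 and 20.2 to 651 at ZT16. Of 150-base windows of the Cyp21a1 transcript, 23.9% were within 2 mismatches of the neighbouring pseudogene Cyp21a2-ps, which was not analysed here, so its reads in that part may have been lost or shared. Cyp21a1 lies on chromosome 17 at 34801348 to 34804426 of the mouse genome GRCm38.p6.

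Cyp11a1, which makes pregnenolone from cholesterol in the first step of all steroid synthesis, followed Cyp21a1 closely. Its level was 68.4, 248, 27.6, 261, 272, 7.79, 245, 113 and 230 CPM in the 9 libraries in the same order as above, and 0.06 to 1.86 CPM in the 56, with no library at 0. The counts of Cyp11a1 per count of Cyp21a1 stayed between 0.387 and 0.623 in the 8 young libraries and were 0.449 in RX10LU although the levels ran from 7.79 to 272 CPM. Mc2r, the receptor of ACTH, was the lowest of the cortex genes apart from Cyp11b2, with 0.652 to 14.4 CPM in the 9 libraries, highest in RX10LU, and 0 to 0.533 CPM in the 56.

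Star had the highest floor of the members. In the 56 libraries Star was at 2.68 to 7.66 CPM, where Cyp11a1 was at most at 1.86 CPM and Cyp11b1 was at 0 in 27 of them and Cyp11b2 in 46. It made up 84.5% of the summed cortex counts of the 22 young libraries under 100 Cyp11b1 counts, 80.8% of the 26 such nephritic libraries and 66.2% of the 8 remission libraries, so the cortex level in these libraries is mostly that of Star. In the 9 libraries Star rose above this floor to between 18.99 CPM in ZT16LL and 620 CPM in ZT120. Star lies on chromosome 8 at 25808474 to 25815982 and Cyp11a1 on chromosome 9 at 57998024 to 58027031.

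**Figure D2:**
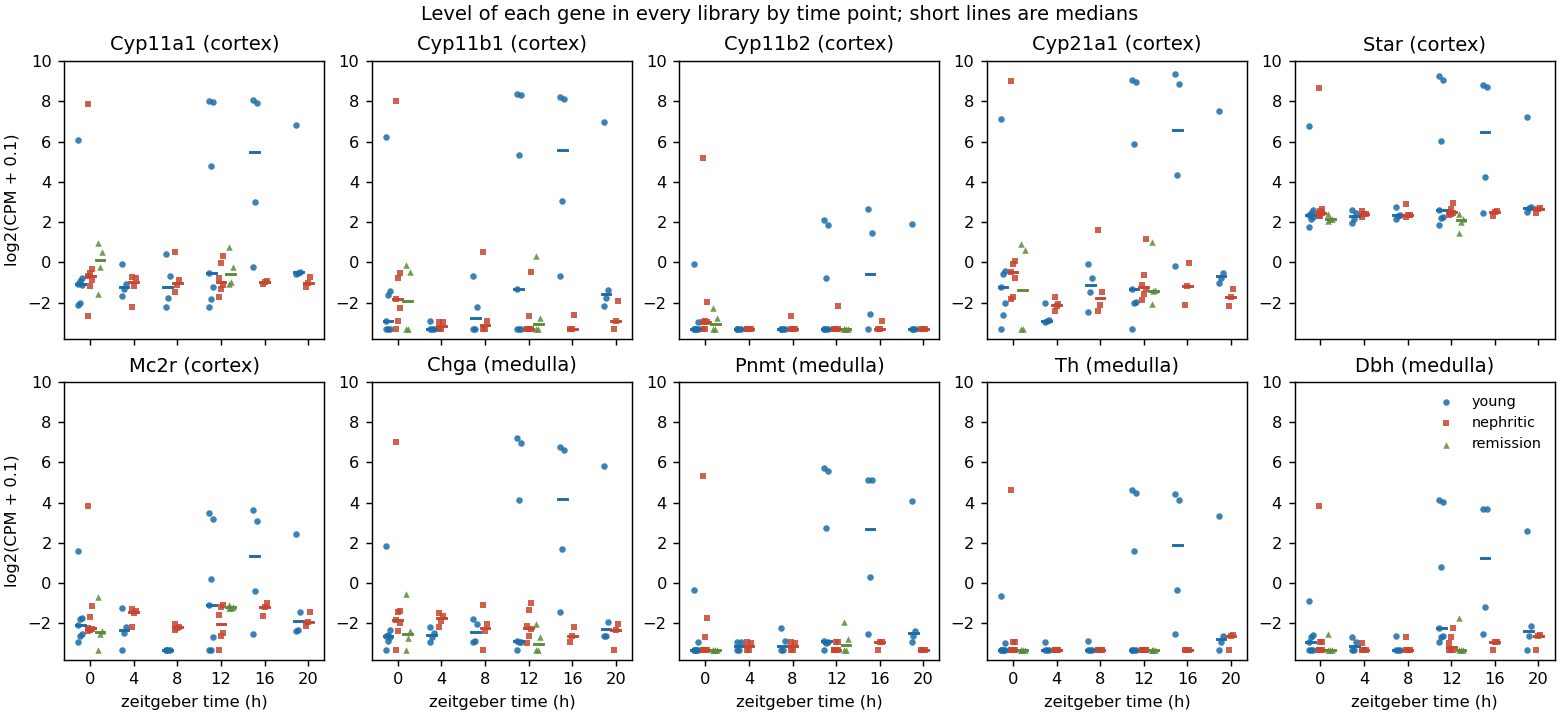
Each panel gives 1 of the 10 genes as log2(CPM + 0.1) against Zeitgeber time in hours for every library, with young (circles), nephritic (squares) and remission (triangles) mice side by side and a short line at the median of each group. Most points of every gene but Star lie near the bottom of the scale at all times, and the high points are the same libraries in each panel.

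Cyp11b1 and Cyp11b2 make the last steps of corticosterone and of aldosterone and lie side by side on chromosome 15, at 74834892 to 74841643 and 74850618 to 74856231, both on the minus strand. Their transcripts were 87.4% identical over 1520 aligned bases, and the authors counted reads that aligned uniquely with at most 2 mismatches. Only 4.51% of 150-base windows of Cyp11b1 and 9.21% of those of Cyp11b2 lay within 2 mismatches of the other, so nearly all reads could be told apart. The stretch of 60 coding bases in which they differ most, in exon 3 of each, is shown to let the reader see the difference, with the 24 bases that differ in capitals (Cyp11b1 at chr15:74839246-74839305, Cyp11b2 at chr15:74853815-74853874, transcript strand, GRCm38).
Cyp11b1: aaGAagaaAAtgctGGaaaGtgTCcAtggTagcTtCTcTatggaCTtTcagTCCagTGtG
Cyp11b2: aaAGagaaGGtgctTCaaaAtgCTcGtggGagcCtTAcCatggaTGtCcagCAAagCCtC
Cyp11b1 was at 75.1 CPM in ZT0RU, 324 in ZT12RL, 39.8 in ZT12LU, 327 in ZT120, 273 in ZT16RU, 8.21 in ZT16LL, 295 in ZT160, 124 in ZT20LU and 261 in RX10LU, and at most 1.34 CPM elsewhere. Cyp11b2 was far lower in the young libraries, at 0.834, 4.28, 0.475, 3.54, 2.66, 0.0687, 6.14 and 3.70 CPM in that order, and at 36.1 CPM in the nephritic RX10LU. No young library came near the nephritic one in Cyp11b2, while 4 of them exceeded it in Cyp11b1.

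The share of Cyp11b2 among the counts of both genes shows the same contrast without the level of the tissue. It was 0.83% to 2.89% in the 8 young libraries, with a median of 1.14%, and 12.2% in RX10LU, with an exact 95% binomial interval of 11.5% to 12.8% from 1193 of 9803 counts. The highest young share, in ZT20LU, had an interval of 2.41% to 3.44%. In the remaining 26 nephritic libraries pooled it was 10.6% (15 counts beside 127 of Cyp11b1, interval 6.03% to 16.8%), in the 22 young ones 1.30% (1 count beside 76, 0.0329% to 7.02%) and in the 8 remission ones 6.12% (3 beside 46, 1.28% to 16.9%). The pooled nephritic share was uneven, since 19 of the 26 libraries had 0 counts of Cyp11b2. CRS60 had 5 beside 16 of Cyp11b1 and HIL5LL 4 beside 20, while RX10RU had 2 beside 46. Intervals cover counting error only, and a single nephritic library with many counts gives no measure of the spread between nephritic mice.

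The 4 medulla genes rose with the cortex genes in each of the 9 libraries, at very different levels. Chga was at 3.48 CPM in ZT0RU, 147 in ZT12RL, 17.2 in ZT12LU, 125 in ZT120, 107 in ZT16RU, 3.19 in ZT16LL, 97.0 in ZT160, 56.8 in ZT20LU and 127 in RX10LU, and at most 0.601 CPM in the 56. Pnmt, the enzyme that turns noradrenaline into adrenaline and marks adrenaline cells, was at 0.689 to 53.0 CPM in the 9 libraries and at 0 in 32 of the 56, with 0.197 CPM as the highest there. Th, the first and rate-limiting enzyme of catecholamine synthesis, was at 0.544 CPM in ZT0RU and 24.9 CPM in RX10LU, its lowest and highest of the 9, and at 0 in 46 of the 56. Dbh, which makes noradrenaline from dopamine, was at 0.343 to 17.6 CPM in the 9 libraries and at 0 in 30 of the 56. Per kilobase of exon the order in ZT12RL was Chga with 53.4 CPM, Pnmt with 45.9, Th with 10.3 and Dbh with 6.52.

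The promoters of Th, Chga and Cyp11a1 are shown because these members moved together and come from both layers of the gland; RefSeq promoters (GRCm38.p6) matched 4 of the 10 genes, Cyp11a1, Chga, Th and Dbh. Each sequence is the 250 bases before a transcription start, 5′ to 3′ on the gene's strand, at chr7:142899996-142900245 (minus strand), chr12:102554691-102554940 and chr9:58014702-58014951 (both plus strand). Capitals mark TGACGT, the core of the cyclic AMP response element, or AGGTCA, a core bound by nuclear receptors, searched on both strands.
Th: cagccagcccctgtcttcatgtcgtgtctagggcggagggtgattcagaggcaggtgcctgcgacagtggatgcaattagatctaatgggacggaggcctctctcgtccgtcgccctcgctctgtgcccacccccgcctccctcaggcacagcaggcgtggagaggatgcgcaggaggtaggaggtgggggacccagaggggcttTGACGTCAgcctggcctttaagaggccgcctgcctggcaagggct
Chga: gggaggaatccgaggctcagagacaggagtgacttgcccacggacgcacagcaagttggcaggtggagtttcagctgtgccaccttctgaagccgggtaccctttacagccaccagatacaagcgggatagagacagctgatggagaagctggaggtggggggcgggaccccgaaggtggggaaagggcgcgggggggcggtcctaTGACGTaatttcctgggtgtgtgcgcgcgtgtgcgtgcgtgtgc
Cyp11a1: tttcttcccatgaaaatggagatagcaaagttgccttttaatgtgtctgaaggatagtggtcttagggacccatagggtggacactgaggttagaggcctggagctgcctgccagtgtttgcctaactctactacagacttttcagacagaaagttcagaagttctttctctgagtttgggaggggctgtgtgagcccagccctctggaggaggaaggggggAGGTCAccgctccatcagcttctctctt
The capitals of Th begin at position -45 from the start and spell the full palindrome TGACGTCA, in which the cores of both strands overlap. Those of Chga begin at position -44 and hold 1 core. Of all 32851 promoters, 6.47% hold TGACGT on either strand in the 250 bases before the start and 1.55% hold TGACGTCA. The Cyp11a1 promoter holds AGGTCA at position -28, as do 14.02% of all promoters on either strand, while the other listed start of Cyp11a1 and the start of Dbh hold neither motif. A match is a description of the letters and not of a bound site.

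The proportions between genes were steadier than their levels. Chga counts per Th count were 4.65 to 6.40 over the 8 young libraries and 5.11 in RX10LU, and Dbh counts per Th count were 0.50 to 0.80 and 0.567. Pnmt counts per Th count were 1.64 to 2.19 in 7 young libraries, 1.58 in RX10LU and 1.27 in ZT0RU, where only 15 Th counts stood behind the value. Between the layers, the medulla genes summed to 9.59% to 15.5% of the cortex genes in 7 young libraries, with a median of 12.1%, and to 14.1% in RX10LU. ZT0RU stood apart with 1.31%, since its cortex genes were at 394 CPM and its medulla genes at 5.15 CPM. The other 8 libraries kept this narrow range of percentages while their cortex levels ran from 55.9 to 1752 CPM.

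Star per Cyp21a1 count varied with the labelled time point. It was 1.08, 1.10 and 1.17 in the ZT12 libraries ZT12RL, ZT12LU and ZT120, 0.685, 0.942 and 0.901 in the ZT16 libraries ZT16RU, ZT16LL and ZT160, 0.816 in ZT20LU, 0.776 in ZT0RU and 0.791 in RX10LU. The 3 ZT12 values lay above all 6 others. With the median Star level of the 56 libraries (5.17 CPM) taken off first, the ZT12 values were 1.07, 1.02 and 1.16 and the others 0.677 to 0.889. The values come from young mice on which the genes were picked and from a few libraries, and no test was made.

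**Figure D3:**
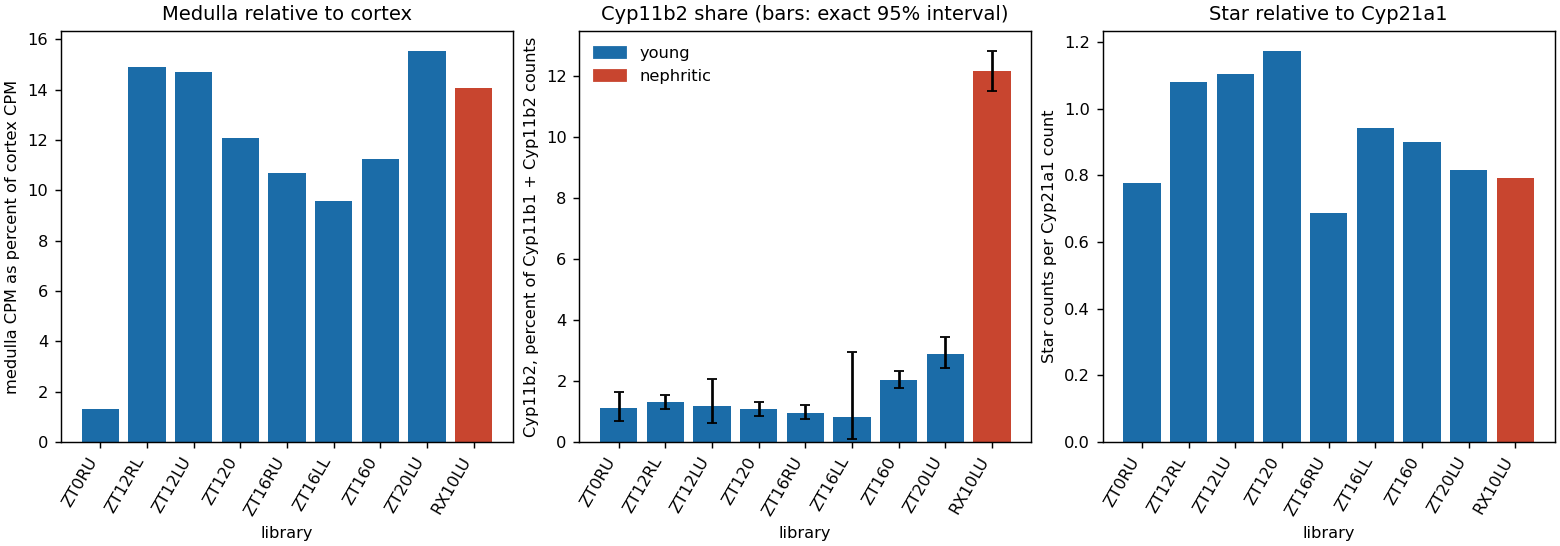
The bars give, for each of the 9 libraries with at least 100 Cyp11b1 counts, the medulla level as a percent of the cortex level, the share of Cyp11b2 among Cyp11b1 and Cyp11b2 counts with its exact 95% interval, and Star counts per Cyp21a1 count. ZT0RU is low in the first panel at 1.31%, and RX10LU is high in the second at 12.2%.

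Over the time points of young mice, the libraries with at least 100 Cyp11b1 counts were 1 of 7 at ZT0, 0 of 4 at ZT4, 0 of 4 at ZT8, 3 of 7 at ZT12, 3 of 4 at ZT16 and 1 of 4 at ZT20. The study's sample table divides the RNASeq of young mice into Set 1 and Set 2, and by the form of their titles 6 and 24 libraries were placed in these. All 8 belonged to Set 2, and the nephritic RX10LU was placed in Set 2 as well. Set 1 held 3 young libraries at ZT0 and 3 at ZT12 only. In Set 2, with 4 young libraries at each time point, the numbers from ZT0 to ZT20 were 1, 0, 0, 3, 3 and 1. At ZT12 the cortex level ranged from 3.86 to 1752 CPM with a median of 7.65, so that the mean of 513 ± 807 CPM (SD, n = 7) rested on 3 libraries. At ZT16 it ranged from 7.53 to 1653 CPM with a mean of 788 ± 878 (SD, n = 4). The spread between mice of 1 time point was thus larger than the mean at both times at which the genes were highest.

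A cosine of 24 h fitted to the 30 young libraries on the log2(CPM + 0.1) scale had an amplitude of 3.53 for Cyp11b1, 3.53 for Cyp21a1, 2.69 for Cyp11a1, 1.78 for Star, 1.73 for Mc2r and 1.40 for Cyp11b2, and of 2.81 for Chga, 2.58 for Pnmt, 2.27 for Th and 2.06 for Dbh. The fitted peak fell between 15.5 and 16.7 h for all 10. In the 22 young libraries under 100 Cyp11b1 counts the amplitude was 0.809 for Cyp11b1, 0.83 for Cyp21a1, 0.127 for Star and 0.157 for Chga, and it fell from 2.31 to 0.211 for the cortex level and from 3.10 to 0.494 for the medulla level. Because the 22 were set apart by the counts of a member, a fall was fixed by that choice and is no test of a rhythm. The level of the clock gene Arntl in the 9 libraries ran from 2.09 CPM in ZT12RL to 50.6 CPM in ZT20LU, and its relation to the members was not tested. Set 2 alone gave amplitudes of 2.72 and 3.64 for the cortex and medulla levels.

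Nephritic mice were not used to pick the genes, and the question there was whether the levels changed over the 6 time points. By edgeR's quasi-likelihood test with the set as a covariate, all 10 genes passed at an adjusted p of at most 0.05, with adjusted p from 0.00213 for Pnmt to 0.0303 for Th, where 21.6% of the 16872 genes tested passed. These calls rested on 1 library. Cyp11b1 was at 261 CPM in RX10LU, whereas the other 6 nephritic ZT0 libraries had 0 to 21 counts, and at the 5 other time points the highest was 46 counts in the ZT8 library RX10RU. Without RX10LU 6 of the 10 genes kept the 100 counts needed to be tested, and 0 of 6 passed, beside 25.7% of all 16791 genes. So few genes say little against that share. Their adjusted p was 0.234 for Cyp11b1, 0.246 for Cyp21a1, 0.787 for Cyp11a1, 0.665 for Star, 0.0824 for Mc2r and 0.772 for Chga. Of the 6, Mc2r alone had an unadjusted p under 0.05, at 0.0283. DESeq2 gave no p to any of the 10, since it sets aside genes in which 1 count dominates.

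The 26 nephritic libraries without RX10LU held few counts of these genes. Summed over them there were 433 counts of Cyp21a1, 405 of Cyp11a1, 167 of Mc2r, 127 of Cyp11b1 and 15 of Cyp11b2, and 130 of Chga, 18 of Dbh, 17 of Pnmt and 7 of Th. Cyp11b1 counts above 10 were seen in 4 of them, with 46 in RX10RU (ZT8), 21 in RX12LL (ZT0), 20 in HIL5LL (ZT12) and 16 in CRS60 (ZT0). Cyp21a1 stood at 101, 17, 70 and 20 counts in the same 4. Thus the labelled time points of these traces differed. In RX10RU, however, the clock gene Arntl was at 18.8 CPM, against 2.06 to 3.72 CPM in the other nephritic ZT8 libraries. Whether its label of ZT8 holds was not tested.

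Remission mice were likewise not used in the choice. Cyp11b1 was seen at 13 and 15 counts in the ZT0 libraries s3 and s8 and at 17 in the ZT12 library s9, and at 0 or 1 in the other 5. Cyp21a1 was at 30, 34 and 28 counts in s3, s8 and s9 and at 0 to 6 in the others, so both hydroxylases were higher in the same 3 libraries. Th was at 0 in all 8, which does not exclude a level too low to be seen at this depth, and Pnmt and Dbh had 4 counts each over the 8. Chga had 15 counts, 8 of them in s4, which is not among the 3. Only Cyp11a1, Cyp21a1 and Star reached 100 counts over the 8 libraries, and 0 of the 3 differed between ZT0 and ZT12 by edgeR, where 0% of 14451 genes did and 1449 had an unadjusted p under 0.05. The log2 difference of ZT12 from ZT0 was -0.43 ± 0.62 (SE) for Cyp11a1, -0.43 ± 1.14 for Cyp21a1 and -0.15 ± 0.20 for Star, with adjusted p of 0.788, 0.893 and 0.772. DESeq2 called 24 of 14451 genes and 0 of the 3. The clock gene Arntl was at 22.5 to 29.9 CPM in the 4 ZT0 libraries and at 3.23 to 4.95 CPM in s10, s12 and s14, but at 27.7 CPM in s9, which goes against its label of ZT12. Without s9 edgeR called 202 of 14316 genes and 0 of the 2 members that could be tested, Cyp11a1 at -0.99 ± 0.62 (SE, adjusted p = 0.437) and Star at -0.27 ± 0.21 (adjusted p = 0.523).

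Remission and nephritic mice were compared at ZT0 and ZT12, the time points both had, with 8 and 13 libraries. Whether libraries of both groups were prepared or sequenced together is not given in the sources used here, and the total counts of the remission libraries were all lower. By edgeR 2 of the 10 genes were lower in remission, Cyp11b2 with a log2 fold of -6.44 ± 2.27 (SE, adjusted p = 0.0323) and Chga with one of -5.78 ± 2.13 (adjusted p = 0.039), where 19% of 16344 genes were lower and 16.8% higher. The change of Cyp11b1 was -4.67 ± 2.52 (adjusted p = 0.151) and that of Th -8.39 ± 4.30 (adjusted p = 0.158). These calls rested on RX10LU and on few counts in remission. No call was left without RX10LU or without any 1 of the remission libraries s1, s3, s4 and s8, and 1 was left without the nephritic HIL5LL or the remission s10. Without RX10LU 5 of the genes could be tested and 0 passed, beside 32.8% of all 16229 genes. The log2 changes were 0.98 for Cyp11a1, 0.96 for Cyp11b1, 0.39 for Cyp21a1, 0.68 for Mc2r and -0.29 for Star, with adjusted p from 0.0691 for Cyp11a1 to 0.673 for Cyp21a1. DESeq2 replaced 1 count of each of the 10 genes before its test. It called 1 of them, Cyp11a1, higher in remission by 0.97 ± 0.40 (adjusted p = 0.0445), where it called 39.4% of all 16344 genes.

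Between nephritic and young mice the members were all lower in nephritic mice in the fit of 57 libraries with time point and set, as follows from the rule, since 8 of the 9 libraries were young; in DESeq2 the sign of Cyp11b2 turned, to 1.07 ± 1.54 (SE). The log2 change was -4.76 ± 1.73 (SE) for Cyp11b1, -2.62 ± 1.42 for Cyp21a1, -2.52 ± 1.14 for Cyp11a1, -2.12 ± 1.37 for Cyp11b2, -1.40 ± 0.63 for Star and -0.93 ± 0.74 for Mc2r. Among the medulla genes it was -5.33 ± 1.59 for Pnmt, -4.85 ± 1.47 for Th, -3.46 ± 1.21 for Dbh and -3.09 ± 1.57 for Chga. Over all 17521 genes the median change was -0.03, and 28.1% of genes were called higher and 33.9% lower. Without the 9 libraries 6 of the 10 could be fitted, and the values became 0.14 ± 0.64 for Cyp11b1, 0.58 ± 0.40 for Cyp21a1, -0.0049 ± 0.26 for Cyp11a1, -0.02 ± 0.07 for Star, 0.77 ± 0.35 for Mc2r and 0.84 ± 0.36 for Chga.

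Other genes of the gland, from lists of 20 for the cortex and 27 for the medulla, were counted in the same fit. Of the 20 cortex genes 12 were lower in nephritic mice and 0 higher by edgeR, beside 33.9% lower and 28.1% higher of all 17521 genes. The median log2 change over the list was -0.86. Nr5a1, the master transcription factor of steroid cells, changed by -4.01 ± 1.31 (SE, adjusted p = 0.0071), Kcnk9, a potassium channel, by -2.81 ± 0.95 (adjusted p = 0.0118) and Hsd3b1, the enzyme between Cyp11a1 and Cyp21a1, by -2.18 ± 0.97 (adjusted p = 0.0471). Over the 65 libraries these genes followed the cortex level of the members, with r of 0.988, 0.86 and 0.975. Their lower levels thus follow from the rule like those of the members, and their p-values are no separate support. Others of the 12 had levels in the 9 libraries that overlapped those in the 56, such as Por, the electron donor of microsomal P450 enzymes, at -0.79 ± 0.10 (adjusted p = 1.01e-09) and Cyp17a1 at -0.94 ± 0.18 (adjusted p = 1.29e-05). Without the 9 libraries 8 of 17 tested were lower and 2 higher, beside 28.9% lower and 28.8% higher of all 17323 genes. Hsd3b1 was then at -0.08 ± 0.20 (adjusted p = 0.762), Nr5a1 and Kcnk9 were below the count minimum, and Por at -0.73 ± 0.11 (adjusted p = 8.32e-07) and Cyp17a1 at -0.95 ± 0.20 (adjusted p = 8.84e-05) were hardly altered.

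Of the 27 other medulla genes 9 were lower and 6 higher in nephritic mice by edgeR, with a median log2 change of -0.51, beside 33.9% lower and 28.1% higher of all genes, so the listed genes stood near the shares of all genes. Scg2 and Chgb, secretory granule proteins like Chga, followed the medulla level (r of 0.979 and 0.972), so the limit given for Nr5a1 holds for them. They changed by -5.22 ± 1.49 (adjusted p = 0.00219) and by -4.29 ± 1.46 (adjusted p = 0.0095). Vgf, a granule peptide precursor, went the other way at 3.84 ± 0.49 (adjusted p = 2.04e-09), as did Uchl1 at 1.52 ± 0.35 (adjusted p = 0.000156). Without the 9 libraries 2 of 19 tested were lower, Slc18a1 and Ddc, and 7 were higher, beside the same 28.9% and 28.8% of all genes. Chgb was at -0.37 ± 0.25 (adjusted p = 0.209), Scg2 was below the count minimum, and Vgf was at 5.18 ± 0.55 (adjusted p = 1.21e-10). Ddc, the next enzyme after Th, is a gene of the proximal tubule, with 29.9 to 248 CPM in the 56 libraries and 73.3 to 236 in the 9.

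**Figure D4:**
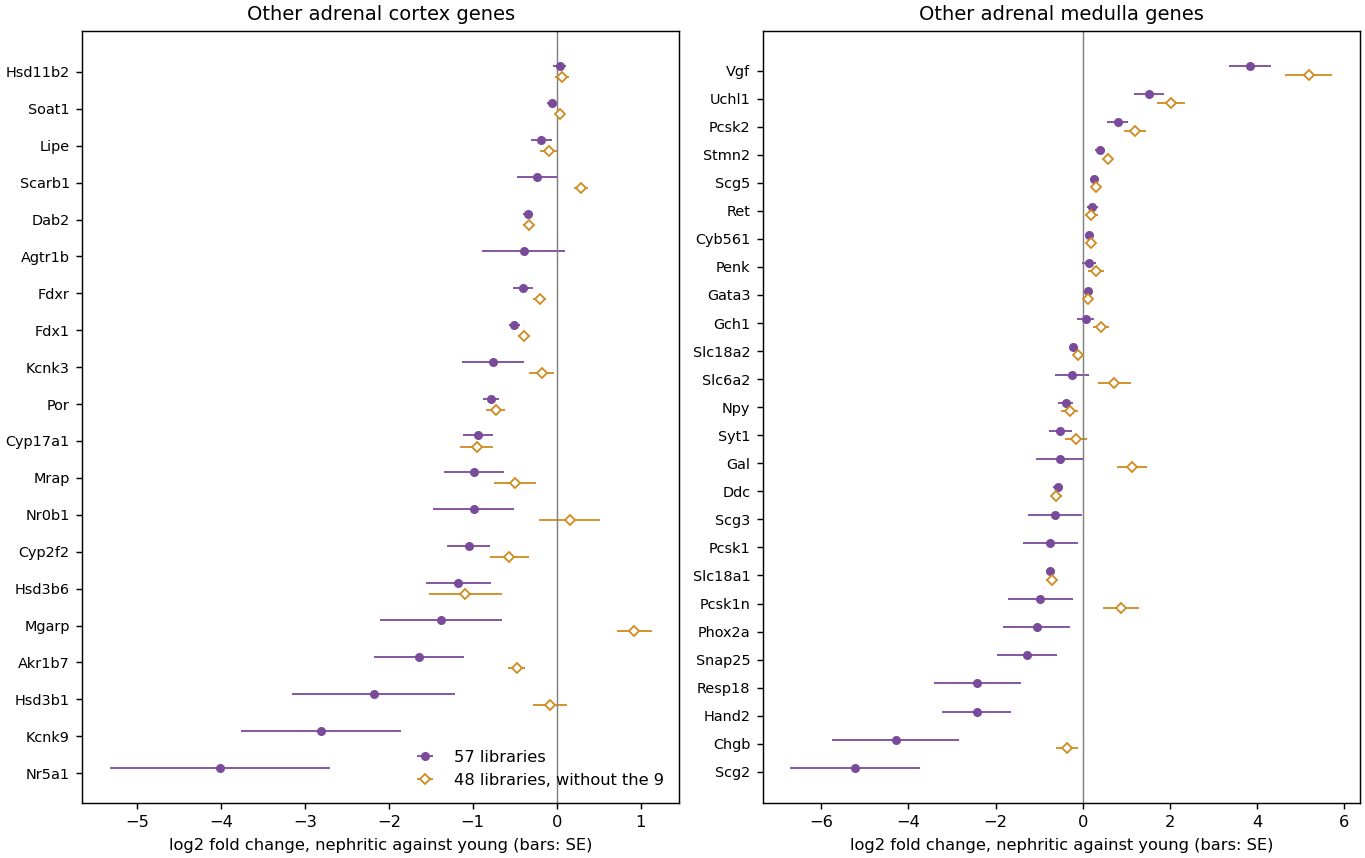
Points give the log2 fold change of nephritic against young mice with its SE for genes of the other cortex and medulla lists, from 57 libraries (circles) and from the 48 without the 9 libraries with at least 100 Cyp11b1 counts (diamonds). Genes with no diamond fell below the count minimum; Hsd3b1 and Chgb move to near 0, while Por, Cyp17a1, Slc18a1 and Ddc stay where they were and Vgf stays higher.

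The same lists over the 6 time points of nephritic mice had 9 of 18 cortex genes and 6 of 21 medulla genes called by edgeR, beside 21.6% of all genes. Without RX10LU 5 of 15 and 3 of 16 were called, beside 25.7% of all genes. Nr5a1, Chgb and Scg2 were called with it (adjusted p of 0.00143, 0.000771 and 0.00184) and were below the count minimum without it, and Hsd3b1 went from an adjusted p of 0.00475 to 0.998. Mrap, the accessory protein of Mc2r that fat cells also make, was called with RX10LU (adjusted p = 0.0123) and without it (adjusted p = 0.00125), as was the lipase gene Lipe (adjusted p of 0.00695 and 0.00222). In remission mice 0 of 13 cortex and 0 of 13 medulla genes differed between ZT0 and ZT12 by edgeR, while without s9 it called 1 of 12 medulla genes, Ddc, lower at ZT12 by -1.07 ± 0.13 (SE, adjusted p = 0.0103), and DESeq2 on all 8 libraries called 1 of 13 cortex genes, Lipe, higher by 0.89 ± 0.22 (adjusted p = 0.0376). Between remission and nephritic mice 3 of 16 cortex genes were called, Soat1 and Por higher and Nr5a1 lower, and 4 of 20 medulla genes, Npy higher and Chgb, Scg2 and Uchl1 lower; 35.8% of all genes were called there. Without RX10LU it was 3 of 15 and 0 of 16, beside 32.8% of all genes.

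The genes most like the members in pattern were sought over all 65 libraries by Pearson's r of log2(CPM + 0.1), as a description in which 9 libraries set most of the value. For the cortex level the first 10 outside the members were Nr5a1 at 0.988, Akr1cl at 0.981, Hsd3b1 at 0.975, Scg2 at 0.971, Chgb at 0.964, Resp18 at 0.953, Akr1b7 at 0.95, Mgarp at 0.941, Tacr2 at 0.94 and Atp2b3 at 0.939. For the medulla level 9 of the first 10 were Scg2 at 0.979, Chgb at 0.972, Resp18 at 0.964, Nr5a1 at 0.962, Hsd3b1 at 0.951, Akr1cl at 0.95, Eef1a2 at 0.938, Akr1b7 at 0.934 and Tbx20 at 0.932. Nr5a1, Akr1cl, Hsd3b1, Scg2, Chgb, Resp18 and Akr1b7 stand in both lists, so genes of the medulla rank among those most like the cortex level and the reverse. Hsd3b1 was at 12.3 to 455 CPM in the 9 libraries and 0.137 to 3.73 in the 56, and Chgb at 1.85 to 117 and 0 to 0.526.

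Of 17577 genes outside the members 53 had an r of at least 0.8 with either level. They held 8 of the 20 other cortex genes and 11 of the 27 other medulla genes. In the remainder of the lists were genes that kidney makes at a high level in every library, such as Hsd11b2, which protects the mineralocorticoid receptor from corticosterone, with r of 0.01 and 154 to 349 CPM in the 9 libraries against 172 to 522 in the 56. Cyp17a1, which mouse adrenals lack after birth, had r of 0.25, with 0.239 to 1.18 CPM in the 9 libraries and 0.0917 to 1.82 in the 56.

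**Figure D5:**
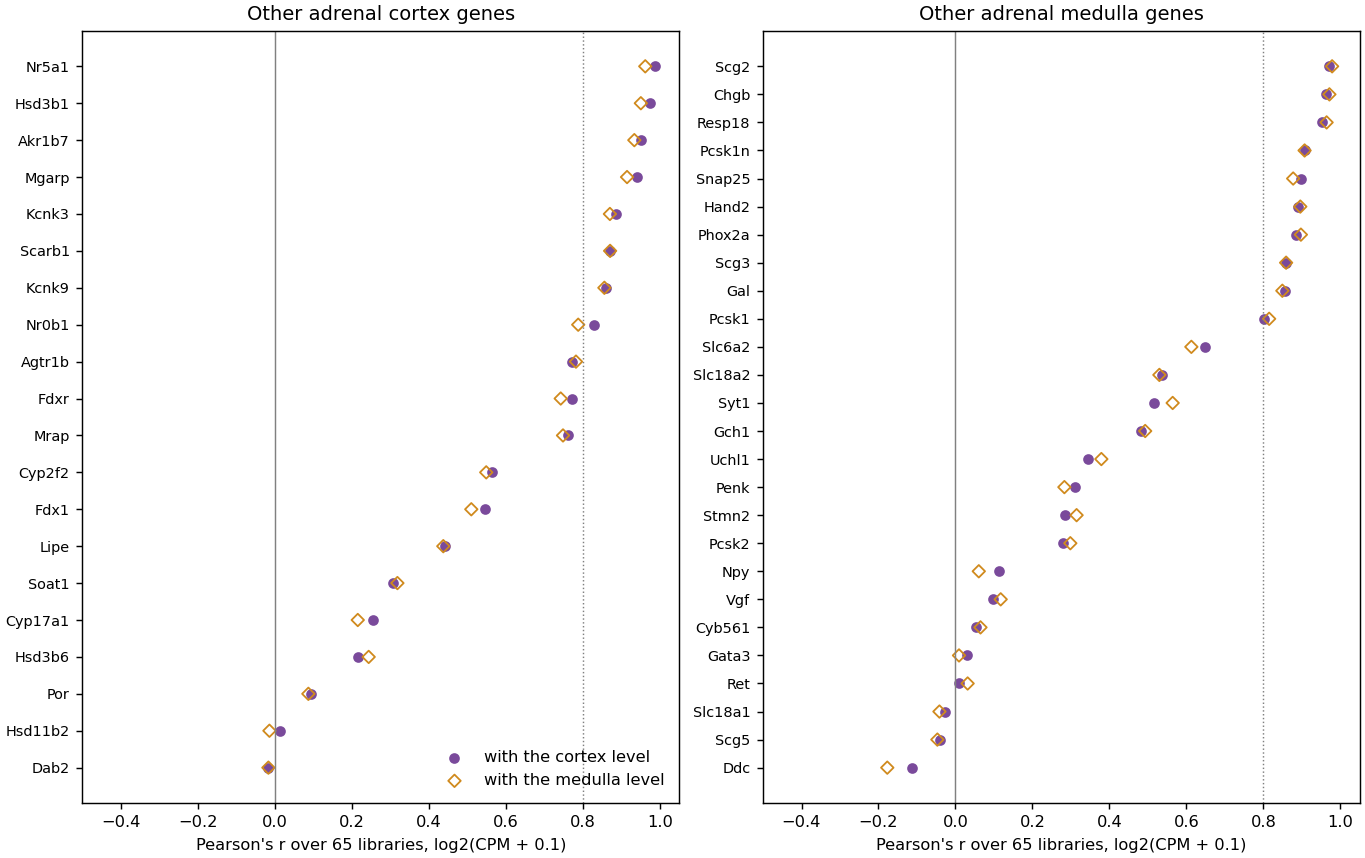
For genes of the other cortex list (left) and medulla list (right) the filled point gives Pearson's r with the cortex level and the open diamond r with the medulla level over 65 libraries; the dotted line marks 0.8. The 2 r values of a gene lie close together, and genes such as Nr5a1 and Scg2 lie to the right of that line.

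The last question was whether cortex and medulla genes rose in the same libraries. In young mice, on which the genes were picked, r between the 2 levels was 0.983 and Spearman's rho 0.853 over 30 libraries, and r was 0.975 without the 2 libraries farthest from the median cortex level; in the 22 libraries under 100 Cyp11b1 counts it was 0.61. In nephritic mice RX10LU was high in both and lay 6.79 apart from the next library on the log2 scale of the cortex level, so no r over all 27 is given. In the other 26, r was 0.49 (permutation p = 0.00997, adjusted over 2 relations 0.0199) and rho 0.464 (permutation p = 0.0182, adjusted 0.0365, both two-sided with 100000 permutations). Without the 2 farthest libraries r of these summed levels was 0.288, so it rests on those 2, and the raw permutation p of r rose to 0.0512 without RX10RU. With Star left out of the cortex level r was 0.646 (permutation p = 0.00027) and 0.546 without the 2 farthest, and for the mean of the members' log2 levels it was 0.548 (permutation p = 0.0037) and 0.461. With Chga left out of the medulla level r was 0.291 (permutation p = 0.147), and in Set 2 alone it was 0.413 (permutation p = 0.0662). These values differ with the weight of Star and of Chga and with the libraries used. The medulla level in these libraries came from 0 to 17 counts, and Chga held 130 of the 172 counts in all. In the 8 remission libraries r was -0.11 (exact permutation p = 0.801, adjusted 0.801) and rho -0.0714 (exact permutation p = 0.882, adjusted 0.882), two-sided, with 0 to 9 medulla counts per library. Whether both layers rose together was not detectable at this depth in remission mice.

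Of the 57 young and nephritic mice 4 had a further library labelled as a repeat, none of them among the 9. The cortex level of the repeat library was 6.50 against 6.13 CPM in the original of ZT0LU, 7.27 against 7.65 in ZT12RU, 4.49 against 6.56 in RX12RU and 5.67 against 6.25 in RX11RU, with at most 8 counts of Cyp11b1 in any of them. These repeats show how far a low level varies between libraries of 1 mouse, and not whether a high one recurs.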

How the data were processed

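RNASeq of whole kidneys was analysed from the gene counts that the authors deposited, 1 table per library, as whole-number counts with no normalization. The authors counted uniquely aligned reads with at most 2 mismatches on exons and splice junctions; the study's methods name a Burrows-Wheeler aligner and the submitters' processing notes name HISAT and the build mm10. Of 69 libraries, 65 originals were used and 4 repeats of the same mice were set aside. The members and lists were chosen with earlier results of these data known. Groups and times came from the labels. Sets 1 and 2 of young and nephritic mice are not in the labels: they were assigned from the form of the titles, whose numbers per time point match the study's sample table. The labels do not say that libraries of a group were independent beyond naming the mouse, so p-values measure the spread between mice as labelled.

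Levels are CPM over all counts of a library, with 0.1 CPM added before log2. Genes with at least 100 counts over the libraries of a fit were tested by edgeR 4.0.16 (R 4.3.3, TMM factors, quasi-likelihood F test, Benjamini-Hochberg over all genes tested, adjusted p of at most 0.05), with set as a covariate where groups spanned sets. DESeq2 1.42.0 was an alternative. Scripts were tested on simulated data. Correlations used summed levels and permutation tests (scipy 1.17.1); no pooled r was given where a gap over 3.3 (log2) parted libraries. The genes named are the 10 members, genes of the 2 adrenal lists with at least 100 counts, and the 10 genes most like each level. Total counts of 13311278 to 48075977 set the precision. The lowest chi-square per degree of freedom between libraries of a group was 3.88, so none was a copy. Leaving out Star, or the libraries with at least 100 Cyp11b1 counts, was chosen after seeing the data. A gene of the lists is counted but its values are not reported here.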

Additional observations from a re-analysis of the deposited data

Results flagged for a closer look

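The cortex and medulla levels were each looked at in the 12 groups of at least 4 libraries of 1 condition and time, for a library whose gap to the others is large beside the range (Dixon's criterion). In nephritic and remission mice this held for 5 of 12 sets of values. Both levels come from the same libraries, so RX10LU enters with each, and many of the medulla levels rest on few counts. The rate expected by chance is thus not known, and the count is a description. In young mice, whose values picked the genes, the 4 values it held for are a description. Among these, ZT0RU had a cortex level of 394 CPM at ZT0, where the others had 3.66 to 6.75, and a medulla level of 5.15 CPM, where they had 0.0323 to 0.205. At ZT20, ZT20LU had a cortex level of 575 CPM against 6.92 to 7.98 in the others and a medulla level of 89.4 CPM against 0.157 to 0.391. The nephritic ZT0 library RX10LU had 1460 CPM of cortex genes against 5.99 to 8.05 and 205 CPM of medulla genes against 0.0336 to 0.479. The remaining differences were small in CPM. The cortex level of the nephritic ZT4 library RX11RL was low at 5.46 CPM, with 6.07 to 6.16 in the others, and that of the nephritic ZT8 library RX10RU was high at 13.1 CPM, with 5.32 to 5.73 in the others. The medulla level of the remission ZT0 library s4 was 0.676 CPM, from 9 counts, with 0 to 0.0939 CPM in the others.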

How the results depend on the processing

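Leaving out 1 library at a time gave 0 to 10 members called over the nephritic time points and 0 to 3 called between remission and nephritic mice, with log2 changes of -3.03 to 0.98 for Cyp11a1, -6.27 to 0.96 for Cyp11b1, -5.46 to 0.39 for Cyp21a1 and -1.40 to 0.68 for Mc2r; RX10LU gave the highest of each and the 0 over time. Star between remission times ranged from -0.27 to 0.0114. Those of Cyp11a1 and Cyp21a1 ranged from -0.99 to -0.19 and from -0.86 to -0.12, and the genes called in all from 0 to 202, the last without s9. The nephritic correlation ranged from 0.393 to 0.572 and the remission one from -0.351 to 0.143. DESeq2 called 1 member between remission and nephritic mice and turned Cyp11a1 to 0.97, Mc2r to 0.64, Pnmt to 0.29, Th to 0.53 and Dbh to 0.79, after replacing 1 count of each. Over the nephritic time points it gave the members no p and called 5646 genes, where edgeR called 3646 and, with no set covariate, 1994. The nephritic correlation was 0.291 without Chga (permutation p = 0.147) and 0.413 in Set 2 alone (permutation p = 0.0662), and 0.646 without Star. The remission correlation was 0.115 without Star, and the young one 0.61 without the 8 libraries. Without the 9 libraries 2 other medulla genes were lower in nephritic mice. Where no cause is named, the cause was not tested. No paired analysis was possible because the labels give the mice of different groups no shared replicate numbers. Depth limits Th, Pnmt, Dbh and Cyp11b2, which had 7 to 18 counts over the 26 nephritic libraries without RX10LU.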
